A study of Mus musculus with 12 samples.

Results

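Trp53, Brca1, Brca2, Rb1, Nf1, Ccne1, Myc, Cdk12 and Stmn1 are mouse counterparts of genes that are altered or used as markers in high-grade serous carcinoma, a cancer that can arise from the epithelium of the distal Fallopian tube. The 9 genes were chosen by symbol, out of 35509 in the deposited count table. Their RNA was measured in normal tubal cells of wild-type mice carrying MADM alleles (labelled RG;GR, mixed background, with no treatment) at 4 weeks of age. MADM, mosaic analysis with double markers, colours a dividing cell's descendants through recombination between chromosomes, so that clones can be seen and cut out. From each of 6 mice came a pair of libraries, 1 of large and 1 of small clones, 12 in all, with 200 laser-dissected cells pooled per library from the distal tube. All groups carry the same alleles, no tumour or mutant sample is among them, and the sources used here give neither the Cre driver nor the clone sizes.

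In human serous carcinoma, loss of p53 is an early and nearly universal event. Many tumours also lose homologous recombination, the error-free repair of broken DNA that needs BRCA1 and BRCA2, while others amplify cyclin E1, and loss of RB1 or NF1 removes brakes on the cell cycle and on RAS signalling. The early lesions in the tube arise mostly among secretory cells, the mucus- and glycoprotein-producing cells that express PAX8, rather than among ciliated cells. The comparison of clone sizes asked how expression in normal clones relates to how far they had grown.

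None of the 9 genes differed between large and small clones past the threshold, which was an adjusted p of 0.05 in the quasi-likelihood test of edgeR. A filter on low counts left 6 of them to be tested (Trp53, Brca2, Rb1, Nf1, Cdk12 and Stmn1), and 0 of these 6 passed, with an adjusted p of 0.9998 for each. Of all 10848 genes tested, 0 passed (0.0%), while 275 had an unadjusted p under 0.05 (2.54%; 1.44% higher and 1.1% lower in large clones), none of them a driver gene. DESeq2 called 35 genes, also with no driver gene among them. The CPM ranges of the clone sizes overlapped for each of the 9 genes, and lay apart for 0.0645% of the tested genes. Across libraries, Brca2 and Trp53 were higher in each of 5 libraries with a high share of counts on chemoreceptor genes than in any of the other 7, for Trp53 under some scalings only. The same held for 8.62% of all tested genes, chemoreceptor genes included, and the libraries were divided by a value measured in them.

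The libraries held between 3057979 and 4227129 expected counts, and 3 counts, the limit that a count of 0 allows, corresponded to 0.585 to 1.33 CPM, the unit used below, in which TMM factors scale each library. Such limits cover counting error only. Chemoreceptor genes (2057 genes whose symbols mark receptors for smell, pheromones or taste), which the tubal epithelium is not known to use, held 7.86% to 11.02% of counts in 5 libraries, the large clones of mice 1, 2 and 6 and the small clones of mice 3 and 6. They held 0.841% to 4.17% in the other 7. Markers of secretory epithelium (8 of 8 detected, Pax8, Ovgp1, Krt7, Krt8, Krt18, Epcam, Wfdc2 and Cdh1) summed to 701 to 2359 CPM in the 5 libraries and to 5028 to 14258 CPM in the 7. Of these, Krt8, Krt18, Epcam and Cdh1 are epithelial genes that are not particular to secretory cells. Markers of ciliated epithelium (8 of 8 detected) summed to 49.1 to 191 CPM and 534 to 2566 CPM. Between clone sizes the ranges overlapped, for secretory markers at 701 to 13067 CPM in large and 1238 to 14258 CPM in small clones. Markers of other cells were also present in both clone sizes. Those of fibroblasts summed to 15.8 to 521 CPM in large and 37.1 to 168 CPM in small clones, those of smooth muscle to 4.09 to 73.3 and 1.68 to 215 CPM, those of immune cells to 0.444 to 260.5 and 3.50 to 106 CPM, those of endothelium to 26.4 to 363 and 40.6 to 117 CPM, and those of red blood cells to 200.4 to 5928 and 33.0 to 2137 CPM. No library had all markers of any of these types at 0, but the sums can rest on a few markers. Of the endothelial markers, Pecam1 and Kdr had counts in 12 of 12 libraries, Cdh5 in 3 and Tek in 2. Of the immune markers, Ptprc and Csf1r had counts in 11, Cd79a in 10, Cd3e in 9, Lyz2 in 5 and Cd68 in 3. Among secretory markers the highest medians were those of Krt18 (3333 CPM) and Ovgp1 (1297 CPM), and Pax8 had counts in 10. Ovgp1 by itself overlapped, at 350.3 to 794 CPM in the 5 libraries and 589 to 7829 CPM in the 7. Wfdc2 by itself lay apart, at 97.3 to 285 CPM in the 5 and 357 to 1149 CPM in the 7. The part of these cell types in the results below was not tested, and in such pooled cells fewer cells of a type cannot be told apart from less RNA per cell.

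Because the counts of a gene sum over its annotated transcripts, the sequence of those transcripts bears on what was counted. Every stretch of 31 bases in the GENCODE M21 transcripts of the driver genes was searched, on both strands, in the transcripts of all 55450 annotated genes. A stretch found in at least 10 other genes is called repeated here. Brca2 held 322 repeated stretches, Cdk12 held 42, Trp53 held 39 and Nf1 held 10, among them the most widely shared of all, found in 2628 other genes, while Brca1, Rb1, Ccne1, Myc and Stmn1 held 0. In Brca2 all of them lay in 4 short non-coding transcripts, 2 of which keep an intron, and none in the coding transcript Brca2-201 of 10724 bases. In Trp53 they lay in the non-coding transcript Trp53-205. The most widely shared stretch of 4 of these transcripts is printed here because Brca2 and Trp53 lay apart between libraries of high and low chemoreceptor share, as described below, while Cdk12 holds such stretches and its values overlapped. Capitals mark the 14 bases that the Brca2 and Trp53 stretches have in common, read on either strand.
Brca2-204: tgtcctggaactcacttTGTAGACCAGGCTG
Brca2-209: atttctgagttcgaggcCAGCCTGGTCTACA
Trp53-205: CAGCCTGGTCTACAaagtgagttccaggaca
Cdk12-205: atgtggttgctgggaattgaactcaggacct

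The stretches of Brca2-204 and Trp53-205 are exact reverse complements of each other, and the same 31 bases occurred in 606 other genes (1.09% of all annotated genes hold them). That of Brca2-209 occurred in 839 other genes (1.51%) and that of Cdk12-205 in 260 (0.471%). The Brca2 and Trp53 stretches carry letters of the B1 family of short interspersed repeats, and that of Cdk12 letters of the B2 family, elements that are scattered through the mouse genome in great numbers. In GRCm38, on the + strand, the stretch of Brca2-204 lies on chromosome 5 from 150568616 to 150568646, in exon 1 of that transcript and in intron 26 of Brca2-201. That of Brca2-209 lies from 150526616 to 150526646, in exon 4 of its transcript and intron 2 of Brca2-201. The stretch of Trp53-205 lies on chromosome 11 from 69588127 to 69588157, in exon 4 of its transcript and in intron 4 of the coding transcript Trp53-206. That of Cdk12-205 lies on chromosome 11 from 98224911 to 98224941, in exon 2 of its transcript and in intron 6 of the coding transcript Cdk12-203.

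**Figure D1:**
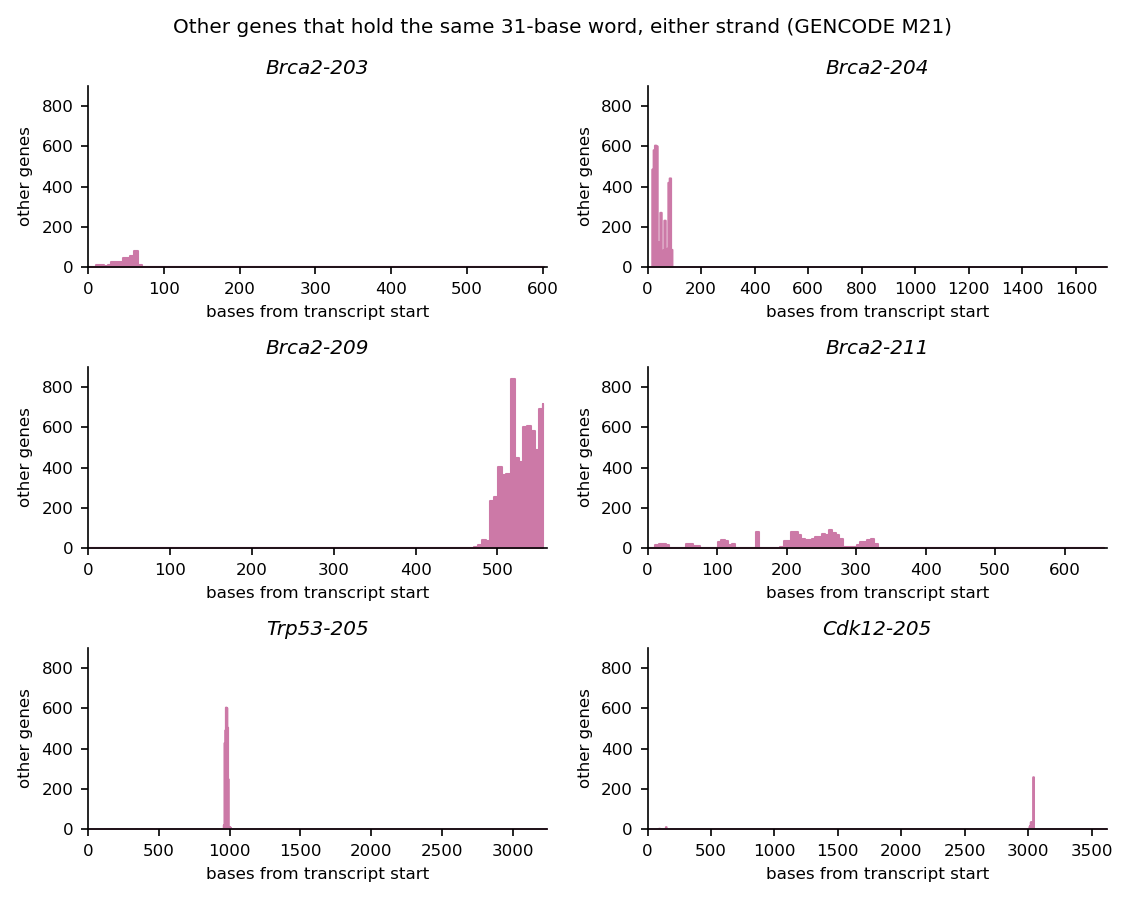
Number of other genes (vertical axis) that hold the same 31 bases as each position of 6 transcripts of Brca2, Trp53 and Cdk12 (horizontal axis, bases from the transcript start), on either strand. Among these transcripts, shared sequence reaches 839 other genes near the end of Brca2-209 and 606 near the start of Brca2-204 and within Trp53-205; Nf1 is not plotted.

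Trp53 encodes p53, the transcription factor that halts or kills cells with damaged DNA (ENSMUSG00000059552, chromosome 11, 69471185 to 69482699 in the table's own coordinates, whose build the table does not name). It was detected in 12 of 12 libraries. Large clones ranged from 16.1 CPM (mouse 3) over a median of 39.9 to 129 CPM (mouse 2), and small clones from 8.10 CPM (mouse 5) over a median of 38.2 to 104 CPM (mouse 6). The clone sizes overlapped almost fully, with 50.8 ± 39.6 CPM in the large-clone and 52.6 ± 39.3 CPM in the small-clone libraries (SD, n = 6 mice each). The log2 fold change, large against small clones as for all genes below, was -0.05 (SE 0.69), and in 3 of 6 mice the large clones had more Trp53. It was 0.12 when mouse was a block, 0.41 without mouse 3, 0.32 without mouse 6 and -0.76 without mouse 2, all with an adjusted p above the threshold in edgeR. Within the 5 libraries of high chemoreceptor share it was -0.57, and within the other 7 it was 0.04.

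Trp53 has a processed pseudogene, Trp53-ps (ENSMUSG00000090704, chromosome 17, 54726708 to 54727869), a copy that can share sequence with its parent gene. The coding transcript Trp53-201 shares 365 stretches of 31 bases with 1 other gene each, and whether that gene is the pseudogene was not tested. Trp53-ps held 589 counts in all, of which 428.9 were in the small clones of mouse 2, where Trp53 itself had 81.3. In 6 of 12 libraries Trp53-ps was at 0. Of its entries 1 was a fraction (428.9) and the others were whole, while all 12 entries of Trp53 were fractions, against 58.4% of the entries above 0 over all tested genes. Expected counts divide a read that fits several transcripts among them, and how reads were divided between Trp53 and other genes was not tested.

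Brca2 encodes a protein of homologous recombination (ENSMUSG00000041147, chromosome 5, 150446095 to 150493794). It had the highest counts of the 9 genes, 33384 in all, and ranked 212 of the 10848 tested genes by mean CPM. Large clones held 1287, 1050, 268, 382, 438 and 1128 CPM in mice 1 to 6, and small clones held 567, 513.5, 871, 254, 170.5 and 1239 CPM. The high values belonged to 3 large-clone and 2 small-clone libraries, so the clone sizes overlapped. The means were 759 ± 444 CPM in the large-clone and 602 ± 399 CPM in the small-clone libraries (SD, n = 6 mice each), and the log2 fold change was 0.33 (SE 0.59), with more Brca2 in the large clones of 4 of 6 mice. With mouse as a block it was 0.43, within the 5 high-share libraries 0.07 and within the other 7 it was -0.14. Leaving out mouse 1 gave 0.08, mouse 2 gave 0.14 and mouse 3 gave 0.64.

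The 5 libraries in which Brca2 was high were the 5 with the high chemoreceptor share. Brca2 lay between 871 and 1287 CPM in them and between 170.5 and 567 CPM in the other 7, a ratio of medians of 2.95. The ranges were also apart with CPM from total counts (ratio 5.38) and with DESeq2's size factors (ratio 2.46). Among the 7 libraries, the order of Brca2 was that of the chemoreceptor share in 7 of 7 places (5 of 7 with CPM from total counts), and among the 5 in 2 of 5. Trp53 lay between 42.0 and 129 CPM in the 5 libraries and between 8.10 and 38.4 CPM in the 7, ranges that were apart in CPM by TMM and by total counts but overlapped with DESeq2's size factors (35.3 to 114 against 7.35 to 37.9). Within the 5, Trp53 did not follow the share, since its lowest values (43.7 and 42.0 CPM) were in the large clones of mice 6 and 1, which had the highest shares. The ratios of medians were as large for Cdk12 (3.25) and Nf1 (3.10), whose ranges overlapped. These are descriptions without a test, since the libraries were divided by a value measured in them. Of all tested genes, 935 (8.62%) lay higher in each of the 5 libraries than in any of the 7, 12.5% with CPM from total counts and 7.61% with DESeq2's size factors, and 9.98% lay lower in each of the 5. The tested chemoreceptor genes, whose counts set the division, were not left out of these shares.

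**Figure D2:**
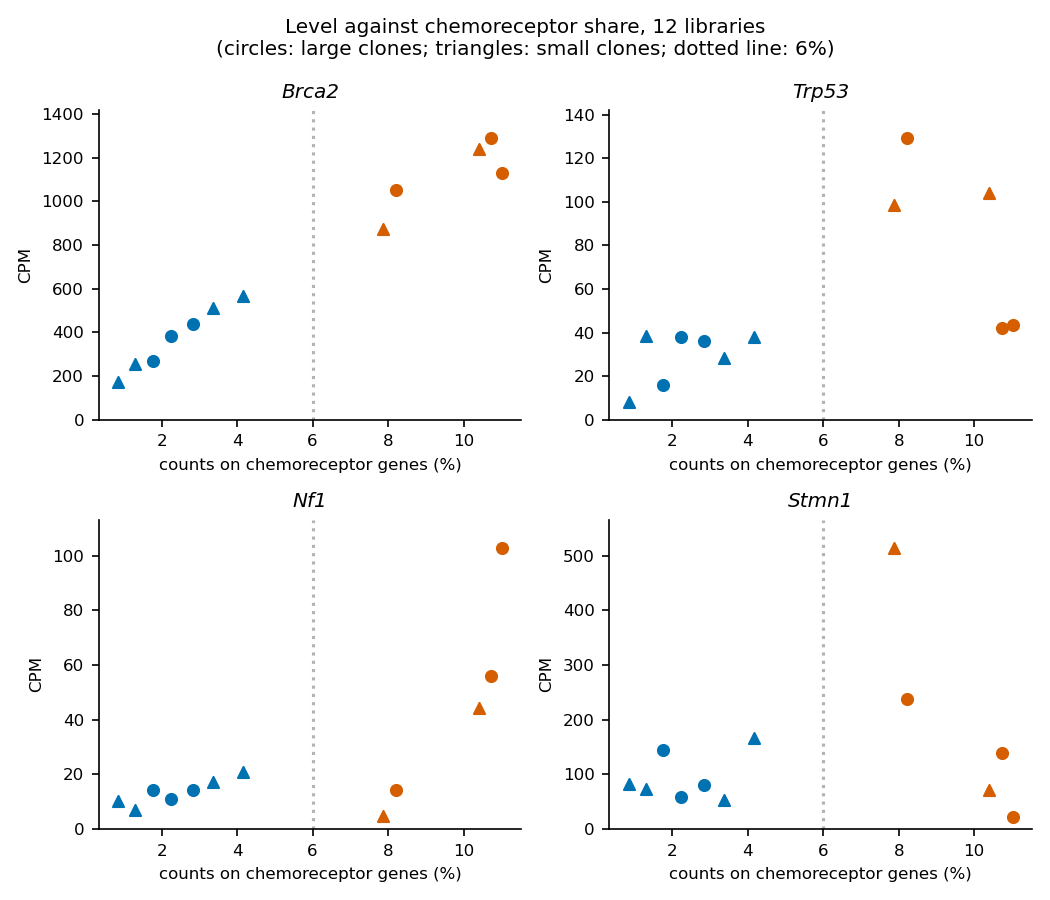
CPM of Brca2, Trp53, Nf1 and Stmn1 (vertical axes) against the percentage of counts on chemoreceptor genes (horizontal axis) in 12 libraries, with circles for large and triangles for small clones. Brca2 lies at 871 CPM or more to the right of the 6% line and at 567 CPM or less to the left, while the Stmn1 values of both sides overlap.

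The repeated stretches were distributed over the tested genes in the following way, given as counts with no test. Of 10844 tested genes with a GENCODE M21 entry, 6194 (57.1%) held a repeated stretch and 4650 did not. Of those with one, 13.9% were higher in each of the 5 high-share libraries than in any of the 7, and of those without one, 1.59%. Seen from the other side, 861 of the 935 genes that were higher in all 5 (92.1%) held a repeated stretch. The chemoreceptor genes that passed the filter are part of these counts, although their own counts divided the libraries. Shares without them are not given here. Among the driver genes, Brca2 and Trp53 of the 4 genes with such a stretch lay apart in this way and Nf1 and Cdk12 did not. Trp53 did so by TMM and by total counts but not with DESeq2's size factors. Of the 5 genes without one none did. Brca1, Ccne1 and Myc could not, being at 0 in at least 1 of the 5 high-share libraries, and Rb1 had 121 counts in all. No conclusion is drawn from the driver genes here. Whether reads of repeat origin were assigned to Brca2 or Trp53 was not tested, since the table sums over transcripts. Counts of the coding transcript of Brca2 cannot be told apart from those of its other transcripts here.

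Brca1, whose product works ahead of BRCA2 in the same repair pathway, was close to the limit of detection (ENSMUSG00000017146, chromosome 11, 101379590 to 101442781). It had 0 counts in 7 of 12 libraries and more than 3 counts in 2, with 68 counts in the small clones of mouse 5 and 16 in the large clones of mouse 2. In CPM these were 19.7 and 3.77, and all other libraries were at 0.680 CPM or below. It was not tested after the filter. In the fit without a filter its log2 fold change was -2.13 (SE 1.84, adjusted p of 0.673 in edgeR), a value that rests on those 2 libraries. The library with the highest Brca1, the small clones of mouse 5, had the lowest Brca2.

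Cdk12 encodes a kinase of RNA polymerase II that sustains the transcription of long genes, several DNA repair genes among them (ENSMUSG00000003119, chromosome 11, 98093885 to 98169330). It ranged from 4.49 over a median of 18.3 to 47.8 CPM in large clones and from 1.49 over a median of 7.56 to 47.7 CPM in small clones. The highest libraries of both clone sizes were close, and the means were 20.3 ± 16.0 and 17.2 ± 19.4 CPM (SD, n = 6 mice each). The log2 fold change was 0.23 (SE 0.91), with more Cdk12 in the large clones of 4 of 6 mice. It was -0.47 without mouse 3, whose large clones held the highest value, -0.02 without mouse 1, 0.72 without mouse 4, 0.83 without mouse 6, -0.25 within the 5 high-share libraries and 0.51 within the 7.

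Rb1 encodes the pocket protein that holds back E2F transcription factors before DNA replication (ENSMUSG00000022105, chromosome 14, 73421113 to 73563262). It was present at a few CPM in both clone sizes. Large clones ranged from 0 over a median of 2.72 to 6.74 CPM and small clones from 0 over a median of 2.94 to 4.34 CPM, and it was at 0 in large clones from mice 3 and 4 and small clones from mouse 2. The means were 2.62 ± 2.54 and 2.56 ± 1.53 CPM (SD, n = 6 mice each), and the log2 fold change was 0.05 (SE 1.00). It was -0.34 when mouse was a block, -0.36 without mouse 2, -0.13 without mouse 6 and 0.40 without mouse 3, and with mouse 5 left out the filter left it untested. It was 0.13 within the 5 high-share libraries and -0.12 within the other 7. Its total of 121 counts limits the precision of these values.

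Ccne1 encodes cyclin E1, which drives entry into DNA replication with CDK2 (ENSMUSG00000002068, chromosome 7, 37797409 to 37806959). It was not detectable in 9 of 12 libraries and had 9 counts in all. There were 2 in the large clones of mouse 1, 6 in the large clones of mouse 6 and 1 in the small clones of mouse 6, so only 1 library was above the limit of 3 counts. It was not tested after the filter, and no fold is given.

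Myc encodes a transcription factor that drives growth and ribosome production (ENSMUSG00000022346, chromosome 15, 61857240 to 61862223). Large clones had 2, 0, 0, 0, 0 and 22 counts in mice 1 to 6, and small clones had 77, 0, 14, 1, 2 and 104. In CPM, small clones reached 24.4 in mouse 1 and 21.9 in mouse 6, and large clones at most 4.29 in mouse 6. Myc was lower in large clones in 5 mice and at 0 in both libraries of mouse 2, but in mice 4 and 5 the difference lay below the limit of 3 counts. The filter left it untested. Without a filter the log2 fold change was -3.37 (SE 1.69), with an unadjusted p of 0.0598 and an adjusted p of 0.444 in edgeR. DESeq2 gave -3.43, with an unadjusted p of 0.0422 and an adjusted p of 0.657. DESeq2 with mouse as a block gave -3.48, with an unadjusted p of 0.0112 and an adjusted p of 0.279. Myc was also tested in the fit of the 5 high-share libraries, at -2.95 (adjusted p of 0.928 in edgeR). The same direction in at least 5 of 6 mice was found for 25.6% of all tested genes.

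Nf1 encodes neurofibromin, which switches RAS off (ENSMUSG00000020716, chromosome 11, 79230519 to 79472438). Large clones ranged from 11.1 over a median of 14.4 to 103 CPM and small clones from 4.71 over a median of 13.8 to 44.3 CPM. The high values were the large clones of mice 6 (103 CPM) and 1 (56.0 CPM) and the small clones of mouse 6 (44.3 CPM). The medians were close and the means, 35.5 ± 37.2 and 17.4 ± 14.5 CPM (SD, n = 6 mice each), were drawn apart by these libraries. The log2 fold change of 1.02 (SE 0.81) was the largest among the 6 tested genes, and 5 of 6 mice had more Nf1 in their large clones. At least 5 of 6 mice had the same direction for 25.6% of all tested genes. All 3 high libraries had a high chemoreceptor share, but the other 2 of that kind did not have high Nf1: the small clones of mouse 3 had the lowest value of all 12 libraries (4.71 CPM), and the large clones of mouse 2 had 14.1 CPM. Within the 5 high-share libraries the log2 fold change was 1.24 (SE 1.25) and within the other 7 it was -0.17 (SE 0.98). With the share as a covariate it was 0.37 (SE 0.62).

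Stmn1 encodes stathmin 1, a protein that takes microtubules apart and is abundant in dividing cells and in early serous lesions of the human tube (ENSMUSG00000028832, chromosome 4, 134195631 to 134201154). Large clones ranged from 22.8 CPM (mouse 6) over a median of 109 to 239 CPM (mouse 2), and small clones from 53.8 CPM (mouse 2) over a median of 77.8 to 515 CPM (mouse 3). The small clones of mouse 3 stood alone, the next highest library of small clones being at 167 CPM. The means were 114 ± 76.9 and 161 ± 178 CPM (SD, n = 6 mice each), and the log2 fold change was -0.50 (SE 0.69), lower in large clones in 5 of 6 mice. In mouse 5, 1 of these, both libraries held 284 counts and differed by scaling only. At least 5 of 6 mice had the same direction for 25.6% of all tested genes. The log2 fold change was -0.38 when mouse was a block, 0.26 without mouse 3 and -1.12 without mouse 2. It was -1.28 within the 5 high-share libraries and -0.11 within the other 7. Fractional entries were rare, 2 of 12. Its annotated transcripts nevertheless share 439 stretches with up to 2 other genes, so near-identical copies could take some of its reads.

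**Figure D3:**
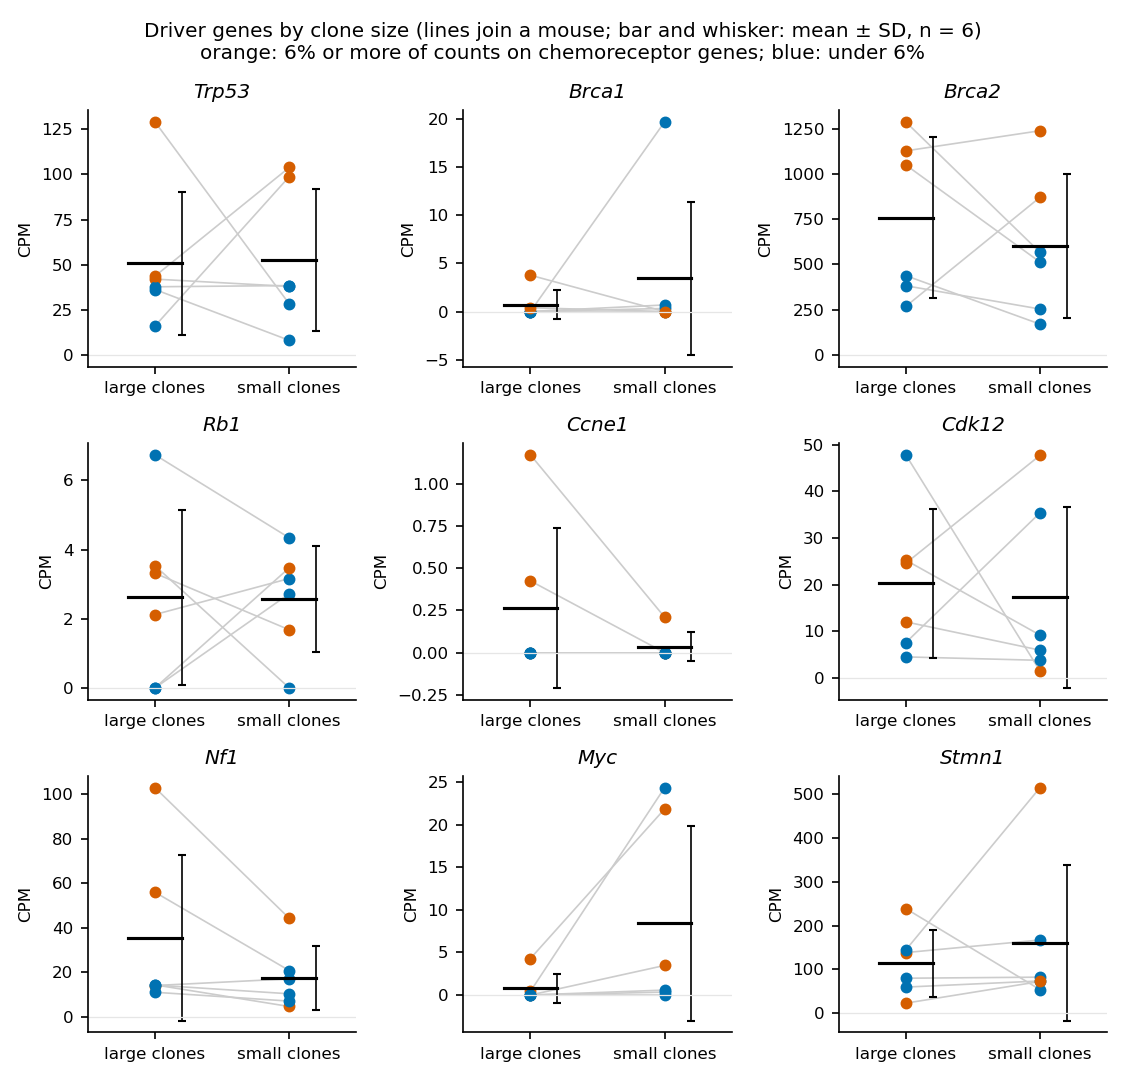
CPM of the 9 genes in each library by clone size, with grey lines joining the libraries of a mouse and black bars and whiskers for the mean and SD (n = 6). Orange points mark the 5 libraries with 6% or more of counts on chemoreceptor genes; they are the 5 highest for Brca2 and Trp53 but not for Rb1, Stmn1 or Myc.

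**Figure D4:**
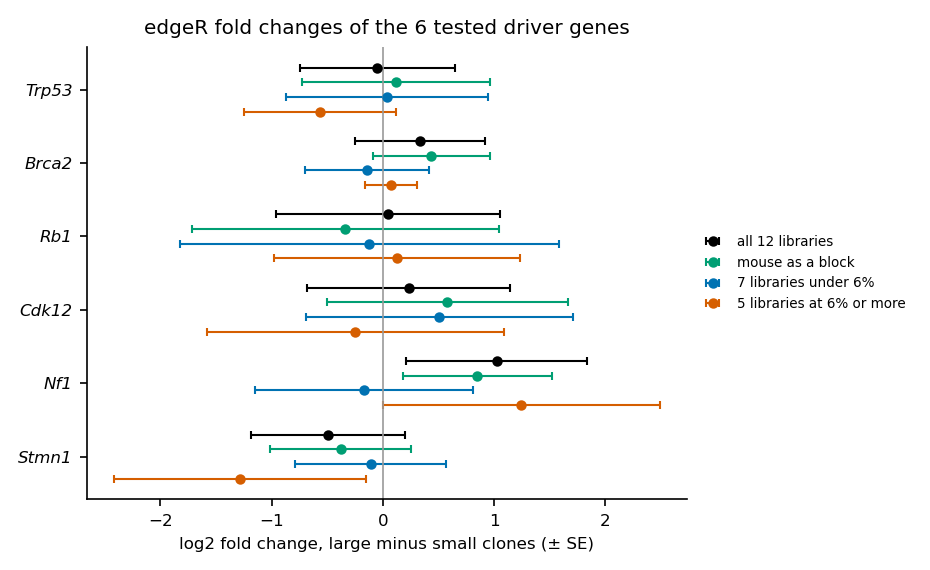
Log2 fold change of large against small clones with its SE for the 6 tested genes, in all 12 libraries, with mouse as a block, and within the 7 and the 5 libraries split at a chemoreceptor share of 6%. Nf1 has the largest value in all libraries (1.02) and -0.17 within the 7.

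Levels can be set side by side only per length, here CPM per kilobase of the longest coding transcript in GENCODE M21. The medians over 12 libraries ran in the order Stmn1 (76.4), Brca2 (50.4), Trp53 (20.5), Cdk12 (1.79), Nf1 (1.21), Rb1 (0.632), Myc (0.163) and Brca1 and Ccne1 (both 0). Stmn1 was above Brca2 per kilobase in 10 of 12 libraries, Brca2 above Trp53 in 12 and Trp53 above Cdk12 in 12. Nf1 was above Rb1 in 9 libraries and below it in 3, and Myc above Brca1 in 6 and below it in 2. The remaining neighbours were near even, with Cdk12 above Nf1 in 5 libraries and below it in 7, Rb1 above Myc in 5 and below it in 4, and Brca1 above Ccne1 in 4 and below it in 3. The value of Brca2 uses a coding length, while part of its counts may belong to other transcripts.

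The partners of the driver genes were taken from 9 lists with 220 names, of which 219 matched the table and 143 passed the filter. Of these 143, 0 passed the adjusted threshold and 5 had an unadjusted p under 0.05 (3.50%, against 2.54% of all tested genes). Their median log2 fold change was 0.13, and that of all tested genes was 0.06.

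Among regulators and targets of p53, 16 of 30 were tested, 8 with a value above 0 and 8 below. Rrm2b, a p53-induced ribonucleotide reductase subunit, had the lowest p, with 32.5 ± 42.5 CPM in the large-clone and 5.56 ± 3.57 CPM in the small-clone libraries (SD, n = 6 mice each; log2 fold change 2.54, SE 1.00, unadjusted p of 0.0236 and adjusted p of 0.9998 in edgeR). Gadd45a, a stress-induced growth arrest gene, had a log2 fold change of -1.91. Cdkn1a, which encodes the cell-cycle inhibitor p21, was the most abundant of the list at 889 ± 285 and 762 ± 473 CPM (SD, n = 6 mice each), with a log2 fold change of 0.22. It too was higher in each of the 5 high-share libraries (1004 to 1448 CPM) than in any of the 7 (212 to 907 CPM). The others of the list with that pattern were Tnfrsf10b and Plk2.

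Of 36 homologous recombination genes, 25 were tested and 0 had an unadjusted p under 0.05. Atm, the kinase that signals broken DNA, had a log2 fold change of 1.86 (SE 1.15), and Fancl, the ubiquitin ligase of the Fanconi pathway, -1.20 (SE 1.04). Chek2, a checkpoint kinase downstream of ATM, had the highest mean CPM at 3066 ± 1273 CPM in the large-clone and 2427 ± 1356 CPM in the small-clone libraries (SD, n = 6 mice each). All 12 entries of Chek2 were fractions, and which of its transcripts its counts belong to was not tested. Like Brca2, Chek2 was separated by the chemoreceptor share, at 3484 to 4670 CPM in the 5 libraries and 742 to 2675 CPM in the 7. Palb2, Xrcc3, Brip1, Blm and Rad52 had the same order, making 6 of 25 tested genes of the list. Over all lists, 14 of 143 tested genes had it (9.79%), close to the 8.62% of all tested genes.

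In the cyclin E, RB and E2F list 15 of 30 genes were tested. E2f2, an activator of replication genes, had 1.93 ± 2.36 CPM in the large-clone and 23.7 ± 28.6 CPM in the small-clone libraries (SD, n = 6 mice each), with a log2 fold change of -3.57 (SE 1.28, unadjusted p of 0.0142, adjusted p of 0.9998 in edgeR), yet it was lower in large clones in only 4 of 6 mice. Cdk6, the partner kinase of D cyclins, had the highest mean, 412 ± 329 and 205 ± 86.3 CPM (SD, n = 6 mice each), with a log2 fold change of 1.01. In the RAS and MAP kinase list 16 of 26 were tested and 0 had an unadjusted p under 0.05. Hras had a log2 fold change of -1.61 and Map2k2, a kinase below RAF, -1.07, the latter lower in large clones in 6 of 6 mice. At least 5 of 6 mice had the same direction for 25.6% of all tested genes. The share with 6 of 6 alone is lower or equal and is not given here.

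In the MYC network 22 of 28 genes were tested. Odc1, a MYC target that starts polyamine synthesis, had 36.8 ± 22.9 CPM in the large-clone and 110 ± 64.7 CPM in the small-clone libraries (SD, n = 6 mice each) and was lower in large clones in 6 of 6 mice (log2 fold change -1.58, SE 0.62, unadjusted p of 0.0216, adjusted p of 0.9998 in edgeR). At least 5 of 6 mice had the same direction for 25.6% of all tested genes, and the share with 6 of 6 alone is not given here. Pes1, a ribosome assembly factor, lay opposite to Odc1, at a log2 fold change of 1.60 with an unadjusted p of 0.0486 in edgeR. Mxi1, a MYC antagonist named here after its value was seen, had a log2 fold change of -2.67. The median of the list was 0.01, with 12 genes above 0 and 10 below. Mxd4, another MYC antagonist, was the most abundant of the list, with a log2 fold change of -0.47.

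Of the CDK12 and elongation list, 15 of 18 were tested and 0 had an unadjusted p under 0.05. Paf1 of the elongation complex had a log2 fold change of -1.05, the kinase gene Cdk7 1.65, and Supt5, the most abundant, -0.24. Of the other stathmins Stmn2 alone was tested, at 2.79 ± 2.17 and 22.3 ± 33.3 CPM (SD, n = 6 mice each; log2 fold change -2.97, unadjusted p of 0.0584). Of 28 further genes linked to serous carcinoma, 22 were tested, with a median of 0.35 and 0 at an unadjusted p under 0.05. In that list Lrp1b had 1.54 and Id4 -1.95, and Wfdc2, which encodes the tumour marker HE4 and is made by normal secretory cells, had 414 ± 376 and 595 ± 397 CPM (SD, n = 6 mice each), with a log2 fold change of -0.52.

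Of 22 proliferation genes, 11 were tested, 9 with a value above 0 and 2 below, and 0 had an unadjusted p under 0.05. The share of all tested genes with a value above 0 is not given here, for this list or the others. No lean towards a clone size is read from such counts. Mki67, a marker of cycling cells, had 22.9 ± 16.3 CPM in the large-clone and 19.1 ± 9.32 CPM in the small-clone libraries (SD, n = 6 mice each). Mcm6 and Mcm7 encode subunits of the same replicative helicase, with log2 fold changes of -2.83 (SE 1.54) and 1.56 (SE 1.32). The median of Mcm7 went against its fold, being lower for large clones (3.71 CPM) than for small ones (6.28 CPM). Its highest large-clone library reached 105 CPM, and 4 of 6 mice had more Mcm7 in their large clones. Mcm6 had medians of 0.918 (large) and 10.3 CPM (small), was lower in large clones in 5 of 6 mice, and peaked at 126 CPM in a small-clone library. No contrast between these genes is read from their folds. Tyms, which makes thymidylate for DNA synthesis, was the most abundant at 978 ± 646 and 691 ± 559 CPM (SD, n = 6 mice each), and was also higher in each of the 5 high-share libraries.

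**Figure D5:**
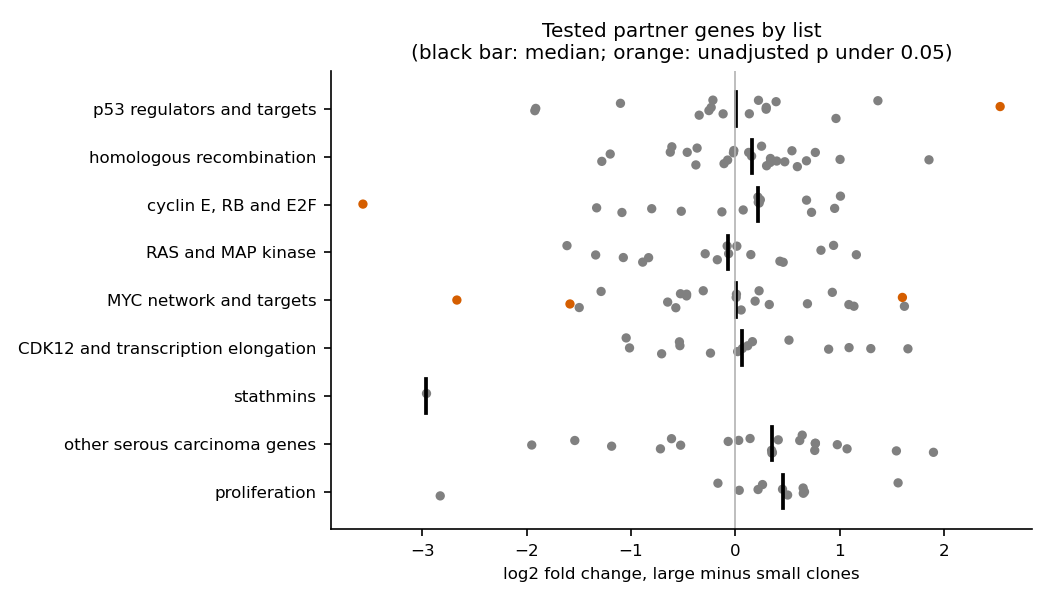
Log2 fold change of large against small clones for each tested gene of the 9 partner lists (points), with the list median as a black bar and genes with an unadjusted p under 0.05 in edgeR in orange. Medians lie between -0.07 and 0.45 except for the stathmins, where 1 gene was tested.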

How the data were processed

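Expected counts, not normalized, were deposited by the authors as 1 table with a row per gene. RSEM and Bowtie2 are named in the submitters' processing notes, with no versions, and the file header names transcript-level results, so transcript estimates were summed per gene; the rule for summing and the annotation are not given in the sources used here. The notes name GRCm38, but 2.97% of 35494 shared genes, and 0 of the 9 driver genes, had their GENCODE M21 (GRCm38) start, so gene coordinates are the table's own and stretches of sequence are in GRCm38.

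Expected counts were rounded and tested in R 4.3.3 with edgeR 4.0.16 (quasi-likelihood, TMM, filterByExpr, Benjamini-Hochberg over 10848 genes, threshold 0.05). These genes held 97.2% of counts, and the biological coefficient of variation was 115%. The SE is the log2 fold change over the root of F. DESeq2 1.42.0 was run on all genes. The 2 libraries of a number come from 1 mouse per the labels, and their deviations from the group means correlated at -0.016, -0.010, -0.37, 0.27, 0.51 and 0.63 in mice 1 to 6. The 9 genes and all lists, with the 6% limit, were chosen with earlier results of these data known. The rule named, per list, genes passing or else the 2 with the lowest p, and the gene with the highest mean CPM; Pax8, Ovgp1, Foxj1, Mki67, Cdkn1a and pseudogenes were named whatever their values. The tests and the sequence search were tested on simulated data. The figures used matplotlib 3.10.9.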

Additional observations from a re-analysis of the deposited data

Results flagged for a closer look

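The 9 genes were searched in each clone size, 18 groups of 6 libraries, for a library whose gap to the nearest other exceeds 0.625 of the range. There were 7. The limit stands for a chance of about 1 in 20 per group only where values are normally distributed, and skewed CPM need not be. Counts with many zeros also give such gaps easily. The share of such gaps over all tested genes is not given here, so the 7 are not read as particular to these genes. In large clones, Trp53 was at 129 CPM in mouse 2 against 43.7 in the next library, Brca1 at 3.77 CPM in mouse 2, Myc at 4.29 CPM in mouse 6 and Ccne1 at 1.17 CPM in mouse 6. In small clones, Stmn1 was at 515 CPM in mouse 3 against 167 in the next library, Brca1 at 19.7 CPM in mouse 5 and Ccne1 at 0.210 CPM in mouse 6, which is 1 count.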

How the results depend on the processing

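No driver gene passed the adjusted threshold in any of the 14 alternatives in which it had an adjusted p; the lowest was 0.279, for Myc in DESeq2 with the replicate block. Over all genes the count past the threshold was 0 in edgeR under each alternative, 35 in DESeq2 and 58 in DESeq2 with the replicate block. The count of partner genes at an unadjusted p under 0.05 (5) was 18 with no filter, 19 in DESeq2, 16 in DESeq2 with the replicate block, 12 in the 5 high-share libraries, 10 when that share was a covariate, and 3 to 7 without 1 mouse. The alternatives differ in the genes they test, and the share of all genes under each is not given here. These counts are therefore not read as a result about the partner genes. Directions turned as follows, with each turned value smaller than its SE. Trp53 (-0.05) was 0.12 with the replicate block, 0.11 in DESeq2 with the block and 0.040 in the 7 libraries. Rb1 (0.05) was -0.34 with the block, -0.54 in DESeq2 with it, -0.0045 in DESeq2 and -0.12 in the 7 libraries. Brca2 (0.33) was -0.14 and Nf1 (1.02) -0.17 in the 7 libraries, and Cdk12 (0.23) was -0.25 in the 5. Without 1 mouse, values ran from -0.76 to 0.41 for Trp53, -0.36 to 0.40 for Rb1, -0.47 to 0.83 for Cdk12, -1.12 to 0.26 for Stmn1, 0.08 to 0.64 for Brca2 and 0.88 to 1.16 for Nf1. The cause was not tested. The ratios of medians between the 5 and the 7 libraries, alternatives for which were chosen after seeing the data, ran from 2.57 to 3.64 for Brca2 and 1.92 to 3.49 for Trp53 without 1 mouse, and that of Brca2 was 5.38 with CPM from total counts. Low counts limit Brca1, Ccne1, Myc and Rb1.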

Other observations

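Each tested driver gene was set beside the gene whose ranks over the 12 libraries were most like its own, by Spearman correlation of log2(CPM + 1) over 10847 other genes, a description in which libraries share depth and mouse. Brca2 was most like Olfr769, an olfactory receptor gene (0.993), and 426 genes reached 0.9 with it. Trp53 was most like Slc35g1 (0.944), with 26 genes at 0.9 or more. Cdk12 was most like Arid2 (0.930), Nf1 like the processed pseudogene Rpl19-ps7 (0.908) and Rb1 like Specc1l (0.901), with 1 gene at 0.9 for each. Stmn1 was most like Kif3a (0.839), and no gene reached 0.9 with it.

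Of the reference genes of the tube, Pax8 had 20.7 ± 18.2 CPM in the large-clone and 18.8 ± 19.5 CPM in the small-clone libraries, Ovgp1 had 1378 ± 1337 and 2999 ± 2956 CPM, and Foxj1 had 3.51 ± 3.09 and 8.43 ± 10.8 CPM (SD, n = 6 mice each). Ovgp1 lay at 350.3 to 794 CPM in the 5 libraries of high chemoreceptor share and at 589 to 7829 CPM in the other 7.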
